A study of Homo sapiens with 40 samples.

Results

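CD200, CD24, TM4SF1 and CD274 encode proteins of the cell surface, and their RNA was followed through 10 groups of BEAS-2B cultures. BEAS-2B is a line of human bronchial epithelium that was immortalised for growth in culture. Only RNA was measured, not the proteins. The 4 genes were chosen with measured values of these libraries in view, and they are 4 of the 15788 genes in the table. All 4 passed the filter for testing, a mean of at least 1 TPM (a relative RNA level corrected for gene length and sequencing depth) over all libraries, as did 12591 genes in all. Which contrast led to the choice is not stated for each gene. All 4 are taken here as chosen by their level after the prostaglandin agonist ONO-AE1-329 at 1 µM against vehicle, and the values against vehicle are therefore a description and carry no test. Tests are given for the 19 comparisons that use no vehicle library. Those that use the 1 µM ONO-AE1-329 libraries still share them with that contrast.

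All cells were confluent, had been kept overnight in medium without serum and were treated for 2 h. ONO-AE1-329 (ONO from here on) is an agonist of EP4, a receptor for prostaglandin E2. It was used at 0.1 nM, 1 nM and 1 µM. Vilanterol, an agonist of the β2-adrenoceptor used in inhalers, was used at 100 nM. Each of these 4 agonist treatments was also given together with 1 µM roflumilast N-oxide (RNO), the active metabolite of roflumilast and an inhibitor of the phosphodiesterase PDE4. The last 2 groups received RNO without an agonist and vehicle. Every group held 4 libraries, 40 in all, made from poly(A) RNA. The labels number the replicates but do not say whether they were separate cultures, so the p-values reflect only how far these libraries differ from each other, which could be technical.

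EP4 and the β2-adrenoceptor couple to the G protein that activates adenylyl cyclase, so both raise the second messenger cAMP, and PDE4 enzymes break cAMP down. Protein kinase A, activated by cAMP, phosphorylates CREB, a transcription factor that binds a short DNA motif called the cAMP response element (CRE). CD200 is a membrane glycoprotein whose receptor CD200R1 inhibits myeloid cells. CD24 is a small, heavily glycosylated protein held in the membrane by a lipid (GPI) anchor, and it is a ligand of the inhibitory receptor Siglec-10 on macrophages. TM4SF1, first known as the tumour antigen L6, is a multi-pass membrane protein related in shape to the tetraspanins. CD274, better known as PD-L1, binds PD-1 on T cells and restrains them.

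The values are TPM that the authors normalised between samples, with library totals between 956888 and 1091466 and medians between 8.47 and 9.11 TPM. Replicate 3 of vehicle stood apart most, with the highest total and with 27.8% of it in 1 row, MIR6723, against a lowest share of 24.2%. Folds against vehicle are therefore also given without it. Some keratins of the airway epithelial list were present, with KRT17 at a mean of 706 TPM, KRT8 at 359 TPM, KRT18 at 292 TPM and KRT7 at 14.5 TPM. EPCAM and CDH1, epithelial adhesion genes, lay at only 0.265 and 0.745 TPM, and KRT5, KRT14, KRT19 and TP63 have no row. The fibroblast genes COL1A1 and PDGFRB were at 495 and 55.7 TPM. The summed airway epithelial markers, 6 of 10 of which have a row, lay between 1393 and 1771 TPM after 1 µM ONO and between 1796 and 2223 TPM after vilanterol, above the highest vehicle library at 1180.0 TPM. In those groups the sum was high along with the 4 genes, and its part in their results was not tested. After 1 nM ONO, at 942 to 1153 TPM, and 0.1 nM ONO with RNO, at 1077 to 1263 TPM, the sum overlapped vehicle. KRT17 alone ran between 247 and 1510 TPM over the libraries. The endothelial sum reached at most 0.800 TPM in any library, over the 3 of 7 markers with a row. Of the 11 leukocyte markers 2 have a row, LYZ at 0.418 TPM and CD68 at 12.8 TPM, and their sum lay between 10.99 and 15.9 TPM. The fibroblast sum, over 5 of 7 markers, lay between 452 and 633 TPM, and most of it was COL1A1, which alone lay between 401 and 561 TPM. No marker with a row was listed at 0 in any library. Such bulk values cannot tell a gene made by more cells from one made at a higher level per cell.

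The 4 promoters are shown because the members moved together and because CREB binds a known motif. Each sequence holds the 250 bases before the RefSeq start of the gene (GRCh38.p14), from 5′ to 3′ on the strand of the gene. Capitals mark a CRE core, TGACG or its reverse complement CGTCA. The windows are chr3:112332906-112333155 on the plus strand for CD200, chr6:106975628-106975877 on the minus strand for the first of 3 CD24 starts, chr3:149377650-149377899 on the minus strand for TM4SF1 and chr9:5450292-5450541 on the plus strand for CD274.
CD200: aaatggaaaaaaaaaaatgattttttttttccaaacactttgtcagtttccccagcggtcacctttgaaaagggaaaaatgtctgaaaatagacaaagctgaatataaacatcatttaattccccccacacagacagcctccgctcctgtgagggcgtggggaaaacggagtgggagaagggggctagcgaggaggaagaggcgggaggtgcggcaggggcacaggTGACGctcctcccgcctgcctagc
CD24: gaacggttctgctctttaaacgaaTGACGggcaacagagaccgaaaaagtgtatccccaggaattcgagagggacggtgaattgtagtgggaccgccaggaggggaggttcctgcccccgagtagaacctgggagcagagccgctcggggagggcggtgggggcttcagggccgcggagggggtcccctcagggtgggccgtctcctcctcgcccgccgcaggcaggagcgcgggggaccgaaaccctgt
TM4SF1: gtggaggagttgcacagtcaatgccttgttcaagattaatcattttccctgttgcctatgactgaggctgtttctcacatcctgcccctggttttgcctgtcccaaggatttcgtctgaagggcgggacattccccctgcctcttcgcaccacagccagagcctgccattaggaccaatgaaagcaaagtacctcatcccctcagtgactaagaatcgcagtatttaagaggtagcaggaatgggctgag
CD274: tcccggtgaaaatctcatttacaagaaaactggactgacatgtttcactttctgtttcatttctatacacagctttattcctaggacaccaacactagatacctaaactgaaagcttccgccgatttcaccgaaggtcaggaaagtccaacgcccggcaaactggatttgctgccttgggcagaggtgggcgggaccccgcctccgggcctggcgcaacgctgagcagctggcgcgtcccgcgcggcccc
CD200 held 1 CRE core, which begins 24 bases before its start, and the first CD24 window held 1, which begins 226 bases before its start. A CRE core lay in 2 of the 3 CD24 windows. TM4SF1 and CD274 held none in these windows. The full CRE, TGACGTCA, which contains the core on both strands, was in none of the 6 windows and neither was AAAGGTCA or its reverse complement TGACCTTT, the motif bound by NR4A receptors. Over the 35116 windows of the RefSeq table, 21.22% held a CRE core, 1.646% a full CRE and 1.045% the NR4A motif on either strand. A match is a description of the letters and not a site of binding. The submitters list GRCh37 and hg19, and whether these GRCh38.p14 starts are those of the measured rows was not checked.

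CD200 was low in vehicle, above only 6.58% of the 12591 tested. With RNO, the values of replicates 1 to 4 were 1.99, 2.72, 2.83 and 2.10 TPM for RNO alone, 3.20, 4.47, 5.89 and 4.62 TPM with 0.1 nM ONO, 4.81, 7.35, 6.44 and 7.86 TPM with 1 nM and 12.5, 13.4, 12.06 and 13.7 TPM with 1 µM. Without RNO, the vehicle libraries held 1.17, 1.85, 1.61 and 1.86 TPM, the 0.1 nM ONO libraries 1.45, 2.45, 1.70 and 1.94 TPM, the 1 nM libraries 3.87, 4.79, 3.80 and 4.30 TPM and the 1 µM libraries 8.99, 9.68, 9.08 and 10.11 TPM. Vehicle and 0.1 nM ONO overlapped, and every library at 1 nM or 1 µM lay above both. All 4 RNO libraries exceeded all 4 vehicle libraries, and CD200 was the only one of the 4 genes of which this was true. Vilanterol with RNO gave 13.8, 14.5, 14.1 and 15.9 TPM, and vilanterol alone 13.7, 13.7, 13.4 and 15.03 TPM. CD200 averaged 9.46 ± 0.527 TPM after 1 µM ONO, 14.0 ± 0.715 TPM after vilanterol and 1.62 ± 0.322 TPM in vehicle (SD, n = 4 each), so that it stood 5.84-fold and 8.62-fold over vehicle (5.83-fold and 8.61-fold without vehicle replicate 3). In the vilanterol libraries the mean of CD200 lay above that of 48.96% of the tested genes.

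CD24 was expressed at 17.5 ± 3.69 TPM in vehicle, close to the median tested gene of 14.3 TPM. With RNO it held 24.2, 18.9, 20.5 and 13.8 TPM without agonist, 36.5, 29.9, 33.7 and 23.2 TPM with 0.1 nM ONO, 54.1, 45.6, 47.3 and 40.5 TPM with 1 nM and 118.8, 93.5, 92.4 and 81.7 TPM with 1 µM. Without RNO it held 22.8, 16.3, 16.6 and 14.3 TPM in vehicle, 22.7, 17.7, 17.1 and 15.2 TPM at 0.1 nM ONO, 39.9, 30.2, 29.98 and 22.9 TPM at 1 nM and 96.1, 69.6, 71.3 and 60.2 TPM at 1 µM. Vehicle and 0.1 nM ONO overlapped, the 1 nM libraries began just above the highest vehicle library, and the 1 µM libraries lay above all of these. Vilanterol with RNO gave 126.2, 95.8, 101.7 and 86.4 TPM, and vilanterol alone 130.4, 98.1, 100.1 and 86.4 TPM, which are much the same. Means of 74.3 ± 15.3 TPM after 1 µM ONO and 103.7 ± 18.8 TPM after vilanterol stood 4.25-fold and 5.93-fold over vehicle (4.17-fold and 5.82-fold without vehicle replicate 3). GENCODE release 29 lists 3 processed pseudogenes of CD24, none with a row in the table, and reads shared with near-identical copies make its level uncertain. The submitters list GRCh37 and hg19, to which this release need not correspond, so which copy the CD24 row measures was not checked.

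TM4SF1 was the most abundant of the 4, above 81.42% of tested genes in vehicle. RNO alone gave 48.04, 60.97, 75.7 and 52.07 TPM, which overlapped vehicle, and the combinations gave 105.2, 119.4, 155.7 and 109.3 TPM with 0.1 nM ONO, 150.8, 177.0, 180.9 and 170.1 TPM with 1 nM and 324.9, 310.3, 341.4 and 313.1 TPM with 1 µM. Its 4 vehicle libraries held 45.8, 48.9, 57.5 and 43.3 TPM, and the ONO libraries without RNO held 46.5, 49.9, 45.7 and 50.6 TPM at 0.1 nM, 100.1, 98.5, 104.4 and 90.8 TPM at 1 nM and 249.0, 207.3, 229.0 and 218.3 TPM at 1 µM. At 0.1 nM the libraries lay inside the range of vehicle, and at 1 nM and 1 µM they formed separate bands. Vilanterol with RNO gave 373.0, 348.4, 384.4 and 352.2 TPM, and vilanterol alone 370.6, 336.1, 359.9 and 350.7 TPM. The lowest library of 0.1 nM ONO with RNO was above the highest library of 1 nM ONO alone, an order found in TM4SF1 and in none of the other 3 genes. Means were 225.9 ± 17.8 TPM after 1 µM ONO and 354.3 ± 14.6 TPM after vilanterol, 4.62-fold and 7.25-fold over the 48.9 ± 6.2 TPM of vehicle (4.91-fold and 7.70-fold without vehicle replicate 3). An antisense gene, TM4SF1-AS1, has no row, and whether the counting used strand is not given in the sources used here.

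CD274 had the smallest folds of the 4 after 1 µM ONO and vilanterol. With RNO the values were 1.82, 3.41, 2.08 and 1.70 TPM without agonist, 3.28, 2.96, 2.83 and 2.92 TPM with 0.1 nM ONO, 3.02, 4.37, 3.85 and 4.80 TPM with 1 nM and 7.04, 6.73, 5.61 and 6.15 TPM with 1 µM. Replicate 2 of RNO was above the other 3 of its group. Without RNO it held 2.23, 2.65, 1.41 and 2.26 TPM in vehicle, 1.97, 2.34, 2.24 and 2.62 TPM at 0.1 nM ONO, 2.50, 2.62, 3.54 and 2.71 TPM at 1 nM and 4.70, 3.99, 3.81 and 4.10 TPM at 1 µM. The lowest vehicle value came from replicate 3, and the vehicle, 0.1 nM and 1 nM groups overlapped. Vilanterol with RNO gave 5.95, 6.38, 5.48 and 4.91 TPM, and vilanterol alone 6.33, 7.40, 6.32 and 6.85 TPM, so CD274 had its highest mean after vilanterol alone. It averaged 4.15 ± 0.388 TPM after 1 µM ONO, 6.72 ± 0.514 TPM after vilanterol and 2.14 ± 0.523 TPM in vehicle, that is 1.94-fold and 3.15-fold over vehicle (1.74-fold and 2.83-fold without vehicle replicate 3).

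**Figure D1:**
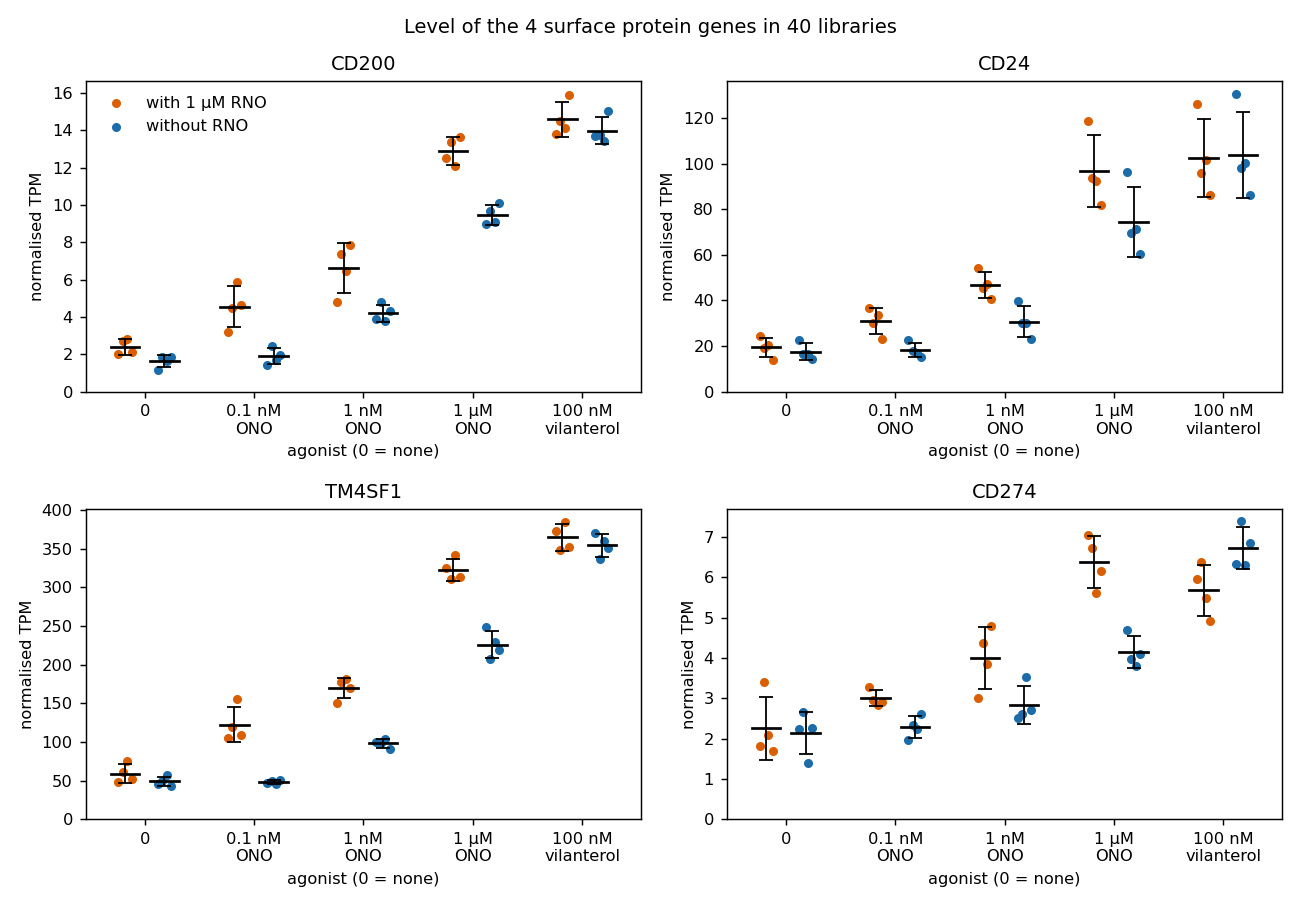
Normalised TPM (vertical axis from 0) of CD200, CD24, TM4SF1 and CD274 for each agonist treatment, with 1 µM RNO at the left of each pair and without RNO at the right. Points are libraries, bars mean ± SD of 4. TM4SF1 ran between 43.3 and 384.4 TPM and CD274 between 1.41 and 7.40 TPM.

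The order of the 10 group means was alike in the 4 genes. Vehicle, RNO alone and 0.1 nM ONO were the 3 lowest in every gene, with ranges that overlapped from each to the next. Next came 1 nM ONO and then 0.1 nM ONO with RNO, whose ranges did not overlap in TM4SF1 and overlapped in the others. Then came 1 nM ONO with RNO and 1 µM ONO, which overlapped in CD274 alone. The top 3 were 1 µM ONO with RNO and the 2 vilanterol groups, and neighbours among these 3 overlapped in all 4 genes. Overlap between treated groups was not counted over all genes, so nothing is read from it. Taking the difference between vilanterol and vehicle as 100.0%, 1 µM ONO gave 63.48% of it in CD200, 65.9% in CD24, 57.95% in TM4SF1 and 43.87% in CD274. With RNO added, 1 µM ONO gave 91.28%, 91.77%, 89.55% and 92.52% in the same order of genes. At 1 nM, ONO gave 32.76% of the difference between 1 µM ONO and vehicle in CD200, 23.29% in CD24, 28.01% in TM4SF1 and 35.03% in CD274. These shares rest on group means and were not tested.

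Counts of genes without overlap set the members beside the rest of the table, and nothing is read from them since the choice of members used vehicle. All 4 libraries lay above all 4 of vehicle for 1 member after RNO, as for 1.59% of the tested genes, for 0 members after 0.1 nM ONO (0.723% of genes) and for 3 after 1 nM ONO (2.34%). The count was 4 of 4 in each of the other 6 treatments, where it held for 4.66% of genes after 1 µM ONO, 8.17% after vilanterol, 2.35% after 0.1 nM ONO with RNO, 3.34% after 1 nM with RNO, 7.82% after 1 µM with RNO and 8.05% after vilanterol with RNO.

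Adding RNO to ONO raised several of the 4 genes, and its fold was largest at the lowest dose for 3 of them. With 0.1 nM ONO, TM4SF1 reached 122.4 TPM with RNO against 48.2 TPM without, 2.54-fold (log2 difference 1.31, SE 0.10, limma adjusted p = 1.49e-10). CD200 reached 4.55 against 1.89 TPM, 2.41-fold (0.93, SE 0.12, limma adjusted p = 5.69e-06), and CD24 30.8 against 18.2 TPM, 1.70-fold (0.73, SE 0.17, limma adjusted p = 0.0298). CD274 was at 2.997 and 2.29 TPM, 1.31-fold, in groups that did not overlap, yet missed the threshold (limma adjusted p = 0.751). Thus 3 of 4 members rose, where 0.659% of tested genes did. The log2 values here and below are differences of log2(TPM + 1), which understate the change of low genes such as CD200 and CD274. Without replicate 2, 3 or 4 of 0.1 nM ONO or replicate 1, 2 or 3 of 0.1 nM ONO with RNO, the call of CD24 was lost (limma adjusted p 0.0807 to 0.163). Fitted on these 2 groups alone CD24 had limma adjusted p = 0.1. With the replicate number as a block it kept its call (limma adjusted p = 1.54e-11), and within each number it lay between 1.53-fold and 1.97-fold.

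With 1 nM ONO, TM4SF1 reached 169.7 TPM with RNO against 98.5 TPM without, 1.72-fold (0.78, SE 0.10, limma adjusted p = 2.73e-05), and CD200 6.61 against 4.19 TPM, 1.58-fold (0.54, SE 0.12, limma adjusted p = 0.0381). CD24 at 46.9 and 30.7 TPM, 1.53-fold, and CD274 at 4.01 and 2.84 TPM, 1.41-fold, missed the threshold (limma adjusted p = 0.242 and 0.439). Here 2 of 4 members rose, where 0.222% of tested genes did. The 4 CD24 libraries with RNO lay above the 4 without, and with the replicate number as a block its limma adjusted p was 2.9e-09, and at most 0.908 under the 15 alternatives. Under the block 3 of 4 members rose, against 0.969% of genes. CD200 lost its call without replicate 1, 3 or 4 of 1 nM ONO or replicate 2, 3 or 4 of 1 nM ONO with RNO (limma adjusted p 0.0992 to 0.305), with a pseudocount of 0.1 (0.0836), without the filter (0.0507) and on these 2 groups alone (0.315).

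With 1 µM ONO, TM4SF1 reached 322.4 TPM with RNO against 225.9 TPM without, 1.43-fold (0.51, SE 0.10, limma adjusted p = 0.00713). CD274 reached 6.38 against 4.15 TPM, 1.54-fold (0.52, SE 0.12, limma adjusted p = 0.0342), its largest RNO fold of the 4 agonist treatments. CD200 at 12.9 and 9.46 TPM, 1.36-fold, and CD24 at 96.6 and 74.3 TPM, 1.30-fold, missed the threshold (limma adjusted p = 0.128 and 0.576). The count was 2 of 4 members higher, against 0.532% of tested genes. With the replicate number as a block the limma adjusted p was 0.00623 for CD200 and 1.06e-05 for CD24, and at most 0.297 and 0.973 under the 15 alternatives of each. Under the block 4 of 4 members were higher, against 2.78% of genes. CD274 lost its call without replicate 2, 3 or 4 of 1 µM ONO or replicate 1, 2 or 4 of 1 µM ONO with RNO (limma adjusted p 0.0695 to 0.13) and with a pseudocount of 0.1 (0.09).

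With vilanterol, RNO left the genes near their vilanterol level. CD200 stood at 14.6 TPM with RNO against 14.0 TPM without (1.04-fold, log2 95% interval -0.19 to 0.30), CD24 at 102.5 against 103.7 TPM (0.988-fold, -0.37 to 0.34) and TM4SF1 at 364.5 against 354.3 TPM (1.03-fold, -0.17 to 0.25). CD274 stood lower with RNO, at 5.68 against 6.72 TPM (0.845-fold, -0.46 to 0.04). In pairs of libraries with the same replicate number, CD274 was lower in 4 of 4 and CD24 in 3 of 4. CD200 and TM4SF1 were higher in 4 of 4. With the replicate number as a block none of the 4 genes was called either. In limma 0 of 4 members and 0% of tested genes were called higher, and at an unadjusted p under 0.05 it was 0 of 4 members and 180 genes in either direction. That is fewer than the 1 in 20 of tested genes that this threshold would pass with no effect, so the fit may miss changes. The log2 intervals above come from the fit without the replicate number, and by themselves they leave room for a moderate change in each gene. Within a number the folds lay between 0.968 and 1.017 in CD24 and between 1.008 and 1.058 in CD200. They lay between 1.004 and 1.068 in TM4SF1 and between 0.718 and 0.940 in CD274.

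The effect of RNO itself was compared between agonist treatments. Between 1 µM ONO and vilanterol the log2 RNO effect differed by 0.73 in CD274 (SE 0.17, limma adjusted p = 0.164), 0.47 in TM4SF1 (0.14, 0.399), 0.40 in CD24 (0.25, 1.00) and 0.35 in CD200 (0.17, 1.00). So 0 of 4 members were called, against 0.0238% of tested genes, with 3 members and 512 genes at an unadjusted p under 0.05. With the replicate number as a block 3 of 4 members were called, against 1.22% of tested genes under the same block, at limma adjusted p = 0.0172 for CD274, 0.0415 for TM4SF1 and 0.00271 for CD24. Over the 23 alternatives of each the adjusted p reached at most 0.349, 0.887 and 1.00 in the same order. The RNO effect at 1 nM minus that at 0.1 nM ONO was -0.53 in TM4SF1 (SE 0.14), -0.39 in CD200 (0.17), -0.12 in CD24 (0.25) and 0.09 in CD274 (0.17). By limma 0 of 4 members and 0% of tested genes were called, with 2 members and 170 genes at an unadjusted p under 0.05. At 1 µM minus 1 nM ONO the values ran between -0.26 in TM4SF1 and 0.14 in CD274, again with 0 of 4 members and 0% of genes called by limma, and 0 members and 222 genes at an unadjusted p under 0.05. The difference in RNO effect between doses was thus not called in any of the 4 genes.

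As a description that uses vehicle, the combination was set against the sum of the agonist alone and RNO alone on the log2 scale. For 0.1 nM ONO with RNO the combination exceeded the sum by 1.05 in TM4SF1 (SE 0.14), 0.60 in CD24 (0.25), 0.55 in CD200 (0.17) and 0.24 in CD274 (0.17). For 1 µM ONO with RNO the excess was 0.48 in CD274, 0.26 in TM4SF1, 0.25 in CD24 and 0.03 in CD200. For vilanterol with RNO all 4 genes lay below the sum, with differences between -0.15 in CD24 and -0.32 in CD200.

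**Figure D2:**
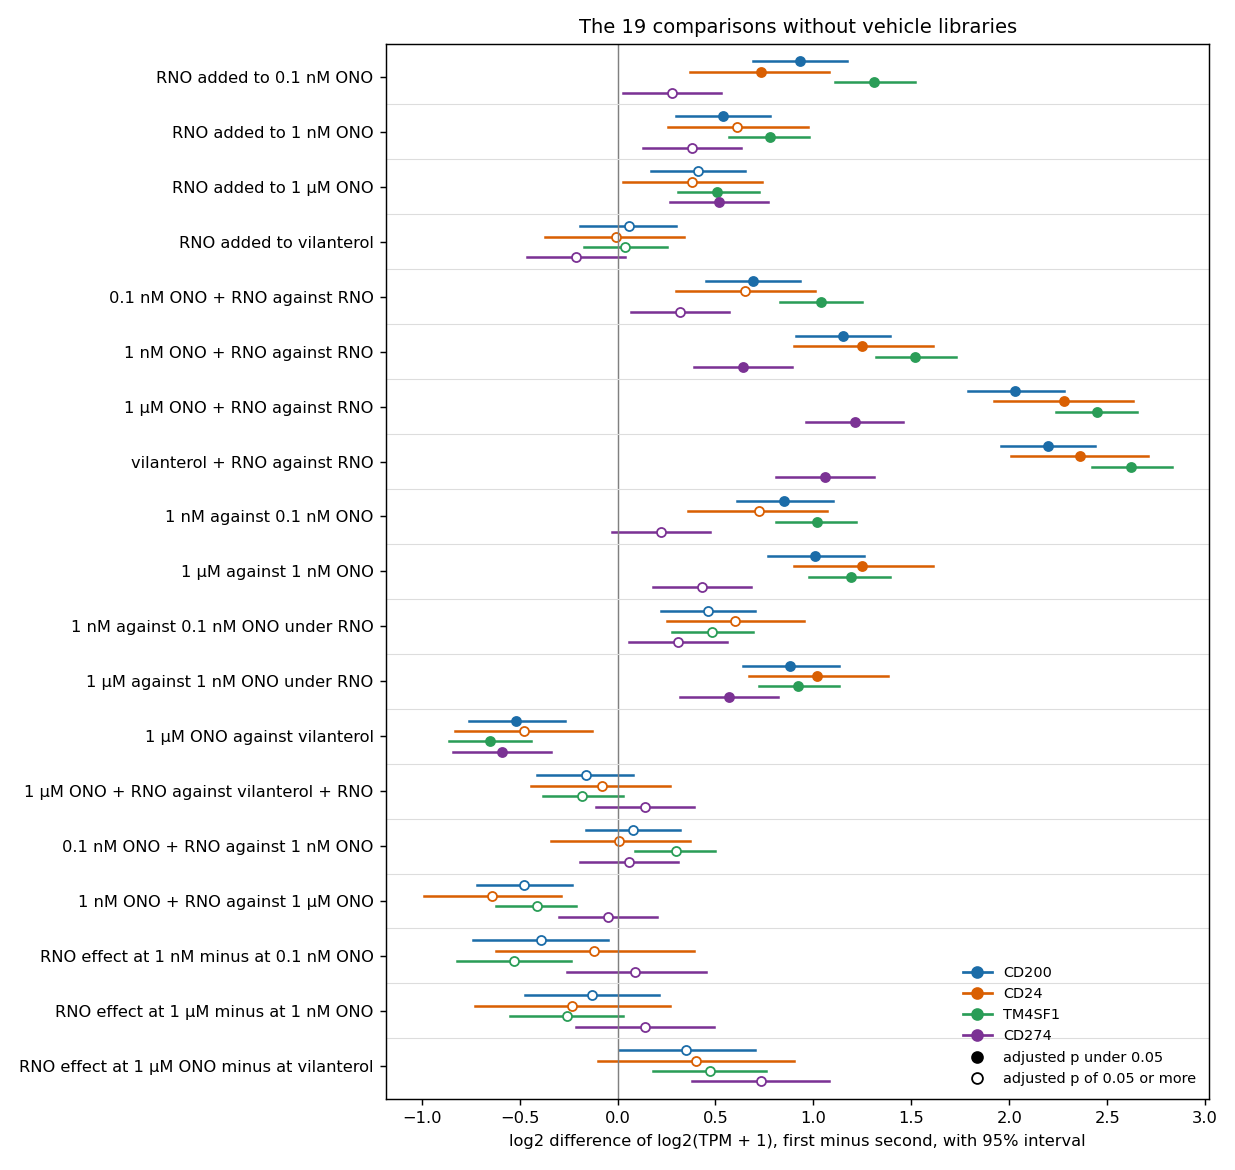
Log2 difference, first minus second, of log2(TPM + 1) with its 95% interval (horizontal axis) for the 4 genes in each of the 19 comparisons without vehicle. Filled points have a limma adjusted p under 0.05 in the fit without the replicate number, as 33 of the 76 do. With the replicate number as a block it is 49 of 76. Points for RNO added to vilanterol lie around 0, and those for 1 µM ONO against vilanterol lie below 0.

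Set against RNO alone, the agonists with RNO gave folds in the same order of genes at every dose. Vilanterol with RNO raised TM4SF1 6.16-fold (log2 difference 2.62, SE 0.10), CD200 6.05-fold (2.20, 0.12), CD24 5.30-fold (2.36, 0.17) and CD274 2.52-fold (1.06, 0.12), with limma adjusted p of at most 2.80e-08. ONO at 1 µM with RNO raised them 5.45-fold, 5.35-fold, 4.996-fold and 2.83-fold in the same order, with limma adjusted p of at most 2.04e-09. All 4 members were higher in both, against 8.28% and 6.76% of tested genes. The 4 genes are taken as chosen for their level after 1 µM ONO, so a rise with agonist was likely beforehand. Nothing is therefore read from the counts of members against RNO alone. At 1 nM ONO with RNO, 4 of 4 rose again (1.31% of genes), TM4SF1 2.87-fold, CD200 2.75-fold, CD24 2.42-fold and CD274 1.78-fold, with limma adjusted p of at most 0.0015. At 0.1 nM with RNO, TM4SF1 rose 2.07-fold to 122.4 TPM, against 59.2 TPM with RNO alone (limma adjusted p = 7.88e-08), and CD200 1.89-fold to 4.55 TPM, against 2.41 TPM (0.0013). That was 2 of 4 members, against 0.572% of genes. CD24 was 1.59-fold (limma adjusted p = 0.0904, blocked 5.22e-10, at most 0.528 under 15 alternatives) and CD274 1.33-fold (0.532). Under the block 3 of 4 members rose, against 2.14% of genes. Without replicate 4 of 0.1 nM ONO with RNO the limma adjusted p of CD24 was 0.0441, and without replicate 2 of RNO that of CD274 was 0.0478. On the 2 groups alone CD274 at 1 nM and CD200 at 0.1 nM lost their calls (limma adjusted p = 0.159 and 0.147).

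Steps in ONO dose were compared without RNO and with it. At 1 nM against 0.1 nM, TM4SF1 rose 2.04-fold (log2 difference 1.02, SE 0.10, limma adjusted p = 1.46e-07) and CD200 2.22-fold (0.85, SE 0.12, limma adjusted p = 4.58e-05). CD24 was 1.69-fold with limma adjusted p = 0.065 and CD274 1.24-fold with 1.00, so 2 of 4 members rose, against 0.294% of tested genes. For CD24 the limma adjusted p was 4.82e-11 with the block, at most 0.46 under 15 alternatives, 0.038 without replicate 1 of 0.1 nM ONO and 0.0244 without replicate 4 of 1 nM ONO. Under the block 3 of 4 members rose, against 0.89% of genes. At 1 µM against 1 nM, CD24 rose 2.42-fold (1.25, SE 0.17), TM4SF1 2.29-fold (1.19, SE 0.10) and CD200 2.26-fold (1.01, SE 0.12), with limma adjusted p of at most 7.97e-06. CD274 was 1.46-fold (limma adjusted p = 0.0605, with the block 0.0213, without replicate 3 of 1 nM ONO 0.0262, at most 0.227 under 15 alternatives). That made 3 of 4 higher, against 1.68% of genes, and 4 of 4 with the block, against 3.57%. The 1 µM ONO libraries are those on which the choice of the 4 genes is taken to rest, so nothing is read from these counts.

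With RNO present, 1 nM against 0.1 nM ONO was 1.39-fold in TM4SF1, 1.46-fold in CD200, 1.52-fold in CD24 and 1.34-fold in CD274. The difference between the steps with and without RNO equals the RNO effect at 1 nM minus that at 0.1 nM given above, for which 0 of 4 members were called. In limma 0 of 4 members and 0% of tested genes were called higher, with 4 of 4 members and 377 genes at an unadjusted p under 0.05. The block called 3 of 4 members higher, against 0.318% of tested genes under the block, at limma adjusted p = 4.82e-09 for CD24, 0.00308 for TM4SF1 and 0.00836 for CD200, with at most 1.00, 0.61 and 1.00 under the 15 alternatives of each. Without replicate 1 of 1 nM ONO with RNO the limma adjusted p was 0.031 in both TM4SF1 and CD200, and without replicate 3 of 0.1 nM ONO with RNO it was 0.00544 in TM4SF1. Between 1 nM and 1 µM with RNO all 4 rose, against 2.99% of genes, a count from which nothing is read for the same reason as without RNO. CD24 was 2.06-fold higher (limma adjusted p = 1.37e-04), CD200 1.95-fold (3.67e-06), TM4SF1 1.90-fold (8.42e-08) and CD274 1.59-fold (0.00281).

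The low doses with RNO were also set beside the next higher dose without it. At 0.1 nM with RNO against 1 nM without, CD24 held 30.8 and 30.7 TPM (log2 95% interval -0.34 to 0.37), CD200 4.55 and 4.19 TPM (-0.16 to 0.32), CD274 2.997 and 2.84 TPM (-0.19 to 0.31) and TM4SF1 122.4 and 98.5 TPM (0.09 to 0.50). By limma 0 of 4 members and 0% of genes were called in either direction, with 1 member, TM4SF1, and 383 genes at an unadjusted p under 0.05. At 1 nM with RNO against 1 µM without, CD24 held 46.9 and 74.3 TPM, CD200 6.61 and 9.46 TPM and TM4SF1 169.7 and 225.9 TPM. CD274 held 4.01 and 4.15 TPM (log2 95% interval -0.30 to 0.20). Again 0 of 4 members were called by limma, against 0.222% of genes, with 3 members and 609 genes at an unadjusted p under 0.05. With the replicate number as a block 3 of 4 were called lower, against 1.45% of genes called in either direction under the block (limma adjusted p = 9.07e-10 for CD24, 0.0025 for CD200 and 0.00549 for TM4SF1). The lowest correlation of a pair of libraries with the same number was 0.097 there. Without replicate 4 of 1 nM ONO with RNO the limma adjusted p of CD200 was 0.0455.

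ONO at 1 µM gave less of each gene than vilanterol at 100 nM. CD274 was lower at 4.15 TPM after 1 µM ONO, against 6.72 TPM after vilanterol (0.617-fold, log2 difference -0.59, SE 0.12, limma adjusted p = 0.00426). TM4SF1 was lower at 225.9 TPM, against 354.3 TPM (0.638-fold, -0.65, SE 0.10, limma adjusted p = 1.06e-04), and so was CD200 at 9.46 TPM, against 14.0 TPM (0.677-fold, -0.52, SE 0.12, limma adjusted p = 0.0107). CD24, at 74.3 and 103.7 TPM (0.716-fold), missed the threshold (limma adjusted p = 0.19), and its groups overlapped. With the replicate number as a block it was called (limma adjusted p = 3.85e-08, at most 0.511 under 15 alternatives), and within each number it lay between 0.697-fold and 0.737-fold. So 3 of 4 members were lower, against 1.72% of tested genes, and 4 of 4 under the block, against 4.92%. With RNO in both groups 1 µM ONO stood at 0.885-fold of vilanterol in CD200 (log2 95% interval -0.41 to 0.08), 0.885-fold in TM4SF1 (-0.38 to 0.03), 0.943-fold in CD24 (-0.44 to 0.27) and 1.12-fold in CD274 (-0.11 to 0.39). In limma 0 of 4 members and 0% of genes were called lower there, with 0 members and 306 genes at an unadjusted p under 0.05. The change of the gap with RNO equals the RNO effect at 1 µM ONO minus that at vilanterol, for which 0 of 4 members were called without the block. The 1 µM and 100 nM doses differ, and vilanterol was used at 1 dose only.

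The replicate numbers carried much of the remaining spread in CD24. Replicate 1 was the highest and replicate 4 the lowest in 10 of 10 groups, and the replicate number took up 92.88% of its variance within groups. Folds taken within a number were therefore tighter than the levels. After 1 µM ONO over vehicle they were 4.21, 4.26, 4.31 and 4.21 for replicates 1, 2, 3 and 4, and after vilanterol over vehicle 5.71, 6.01, 6.04 and 6.04. In CD200 the number took up 46.51% of the variance within groups, with replicate 1 the lowest in 7 of 10 groups. In TM4SF1 it took up 34.71%, with replicate 3 the highest in 7 of 10, and in CD274 16.87%. Between groups lay 97.47% of all variance in CD200, 95.05% in CD24, 98.62% in TM4SF1 and 90.39% in CD274.

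**Figure D3:**
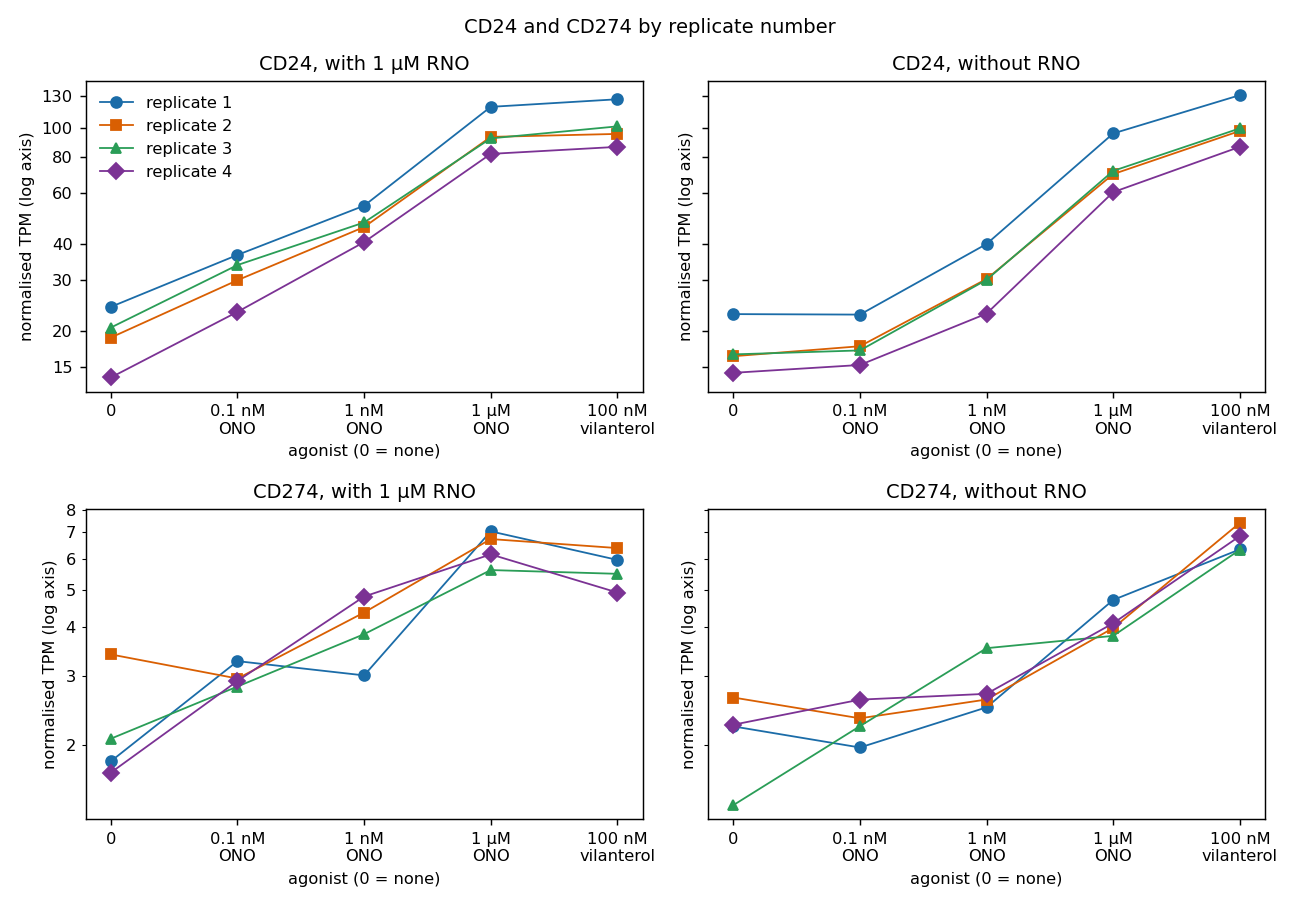
Normalised TPM on a log axis of CD24 and CD274 for each agonist treatment, with 1 µM RNO at the left and without it at the right. Each point is a library and lines join libraries with the same replicate number. In CD24 replicate 1 is on top and replicate 4 at the bottom throughout, and in CD274 the lines cross.

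Other genes followed the same order of groups. Pearson r over the 10 group means in log2(TPM + 1) was used as a measure of likeness, with no test, since all genes share the libraries and treatments. Between the 4 members it ran between 0.973, for TM4SF1 and CD274, and 0.998, for CD200 and TM4SF1. Closest to CD200 were ETS2, a transcription factor (0.998), AVPI1, PDE4D, which breaks down cAMP, BCL2L11, which promotes apoptosis, and TM4SF1. PDE4D stood at 9.59 ± 0.594 TPM after 1 µM ONO, 15.1 ± 0.385 TPM after vilanterol and 2.183 ± 0.401 TPM in vehicle. Closest to CD24 were RNF19A, a ubiquitin ligase (0.998), ZNF331, a zinc finger protein, TSC22D1, ETS2 and CHMP1B, a subunit of the ESCRT membrane machinery. RNF19A stood at 53.0 ± 0.674, 62.7 ± 2.81 and 29.9 ± 1.98 TPM in the same 3 groups. Closest to TM4SF1 were CES3, a carboxylesterase (0.998), CD200, AVPI1, ETS2 and DEPDC7. For CD274 they were CBX8, a Polycomb protein (0.993), NLRP3, an inflammasome sensor (0.990), PPP1R3B, which targets a phosphatase to glycogen, DUSP8, a MAP kinase phosphatase, and SLC19A2, a thiamine transporter. An r over 0.9 was common, reached with 821 of 12590 other genes by CD200, 814 by CD24, 793 by TM4SF1 and 865 by CD274.

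Related surface genes were examined in lists, by the number called against vehicle. The lists were chosen with earlier results of these data known. The counts and p-values of this and the following lists are therefore a description. After 1 µM ONO 4.19% of all tested genes were higher and 3.02% lower, and after vilanterol 9.69% and 7.97%. Of 10 tested checkpoint and related ligands other than the members, 2 were higher and 1 lower after 1 µM ONO, and 3 higher and 0 lower after vilanterol, with median log2 changes of 0.11 and 0.14 against 0 and -0.01 over all genes. PDCD1LG2, which encodes PD-L2, the other ligand of PD-1, rose to 7.93 ± 1.25 TPM after 1 µM ONO and 8.25 ± 0.69 TPM after vilanterol, against 5.54 ± 0.858 TPM in vehicle (limma adjusted p = 9.31e-04 and 7.89e-05). PVR, a ligand of TIGIT and CD226, rose to 30.2 ± 1.87 and 36.4 ± 1.503 TPM in these groups, against 23.9 ± 2.54 TPM (limma adjusted p = 1.86e-04 and 1.11e-09). TNFSF9, the ligand of 4-1BB, fell to 4.84 ± 0.357 TPM after 1 µM ONO, against 6.75 ± 1.11 TPM in vehicle (limma adjusted p = 0.0383). BTN2A2, a butyrophilin, rose slightly after vilanterol, to 8.50 ± 0.335 TPM against 7.44 ± 0.617 TPM (limma adjusted p = 0.0485). CD47, the signal to macrophages recognised by SIRPα, was at 29.4, 29.1 and 28.4 TPM after 1 µM ONO, vilanterol and vehicle (limma adjusted p = 0.688 and 0.725).

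Complement regulators and GPI-anchored proteins, the class of surface protein to which CD24 belongs, held 4 higher and 0 lower of 16 tested after 1 µM ONO, and 6 higher and 0 lower after vilanterol, with median log2 changes of 0.08 and 0.12. EFNA1, an ephrin, rose to 50.6 ± 7.68 TPM after 1 µM ONO and 65.7 ± 10.4 TPM after vilanterol, against 24.8 ± 1.72 TPM in vehicle (limma adjusted p = 2.25e-07 and 7.48e-11). CD55, which speeds the decay of complement convertases, rose to 66.7 ± 3.49 and 82.0 ± 2.77 TPM, against 50.2 ± 2.08 TPM (limma adjusted p = 3.18e-08 and 2.04e-14). ULBP2, a ligand of the activating receptor NKG2D, rose to 10.4 ± 0.88 and 14.4 ± 2.80 TPM, against 6.92 ± 1.24 TPM (limma adjusted p = 0.0105 and 2.42e-06). PLAUR, the urokinase receptor, was called after vilanterol, at 38.0 ± 1.18 TPM against 22.5 ± 1.14 TPM (limma adjusted p = 2.39e-11), and was at 24.4 ± 2.92 TPM after 1 µM ONO (0.377). LYPD3, at a low level, rose after both agonists, and CD59, a complement inhibitor, after vilanterol.

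**Figure D4:**
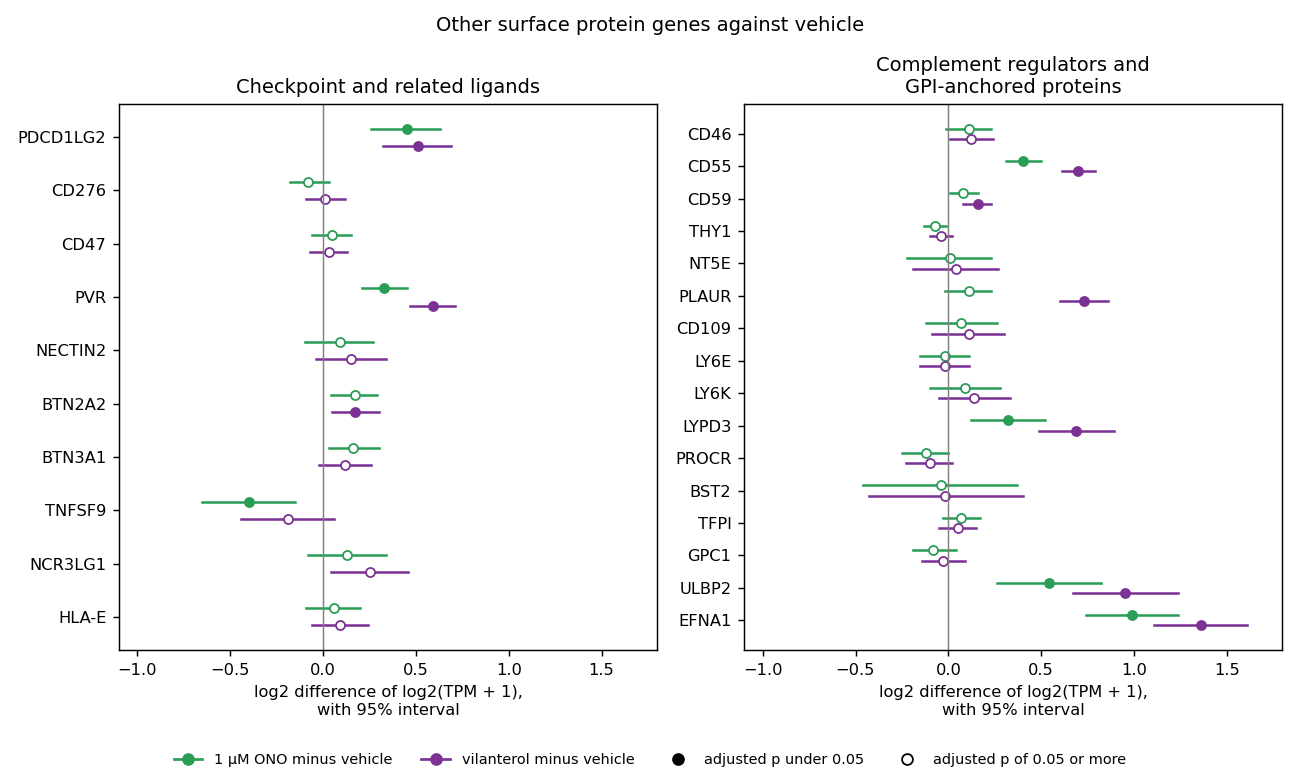
Log2 difference of log2(TPM + 1) from vehicle with its 95% interval (horizontal axis) for 10 checkpoint and related ligands at the left and 16 complement regulators and GPI-anchored proteins at the right. In each row 1 µM ONO is above vilanterol. Filled points have a limma adjusted p under 0.05, and EFNA1 lies farthest to the right.

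Among 16 tested genes known to control CD274, 3 were higher and 1 lower after 1 µM ONO, and 4 higher and 2 lower after vilanterol. SOCS3, which blocks signalling of cytokine receptors, rose to 41.7 ± 5.74 TPM after 1 µM ONO and 55.4 ± 2.86 TPM after vilanterol, against 20.8 ± 1.41 TPM in vehicle (limma adjusted p = 4.06e-08 and 3.85e-12). IFNGR1, a chain of the interferon gamma receptor, rose to 33.8 ± 2.19 and 35.3 ± 1.99 TPM, against 26.4 ± 1.95 TPM (limma adjusted p = 5.64e-05 and 1.59e-06). IRF1, which activates CD274 downstream of interferon gamma, fell to 15.8 ± 2.45 and 14.7 ± 1.52 TPM, against 20.2 ± 1.10 TPM (limma adjusted p = 0.0462 and 0.00363). CMTM4, which stabilises the CD274 protein, rose to 7.73 ± 0.149 and 8.28 ± 0.107 TPM, against 6.78 ± 0.285 TPM (limma adjusted p = 0.00999 and 2.50e-05), while CMTM6, with the same role, was at 60.9, 61.3 and 61.7 TPM in these groups (limma adjusted p = 0.863 and 0.904). After vilanterol MYC rose to 72.1 ± 10.6 TPM, against 49.9 ± 2.48 TPM, and IFNGR2 fell to 23.5 ± 1.97 TPM, against 29.3 ± 3.10 TPM (limma adjusted p = 2.45e-05 and 0.0202). The list thus moved in both directions, with median log2 changes of 0.04 and 0.06.

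The L6 and tetraspanin list held 19 tested genes, all of them tetraspanins, to which TM4SF1 is related in shape. TM4SF20, the only other L6 gene with a row, had a mean of 0.25 TPM and was not tested. The family of TM4SF1 itself was thus not examined. Of the 19 tetraspanins limma called 0 after 1 µM ONO or vilanterol, with 2 and 4 at an unadjusted p under 0.05. Their log2 changes lay between -0.14 and 0.10 after 1 µM ONO and between -0.15 and 0.12 after vilanterol, and CD9, CD63, CD81 and CD151 were among these genes. Of 13 adhesion and stemness markers, 1 was higher and 1 lower after 1 µM ONO and 3 were higher and 0 lower after vilanterol. F3, tissue factor, fell to 154.0 ± 33.0 TPM after 1 µM ONO, against 253.1 ± 32.3 TPM in vehicle (limma adjusted p = 6.92e-04), and MCAM rose to 63.8 ± 7.45 TPM after vilanterol, against 41.6 ± 5.98 TPM (0.00123). ITGB1 was called higher after both agonists and ITGA6 after vilanterol. Of the 5 genes that encode receptors of the members 1 has a row, and it did not reach a mean of 1 TPM.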

How the data were processed

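Libraries were directional poly(A) libraries, per the labels' protocols, and were run with a pair of sequencing kits that the labels do not tie to libraries. GRCh37 and hg19 are the builds, and bcl2fastq 2.18.0.12, sleuth and kallisto the tools, that the submitters' processing notes list. For sleuth and kallisto no version is given in the sources used here. The values are a normalised signal: the authors deposited TPM (abundance scaled for transcript length and depth), adjusted between samples, with unequal totals. No read counts were used, so depth is unknown and no counting interval is given. The planned unit was TPM, and the same test was kept.

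Values became log2(value + 1), and genes averaging at least 1 TPM were fitted in R 4.3.3 by limma 3.58.1, with 1 mean per group over 40 libraries, an intensity trend and 30 residual degrees of freedom. Tables and figures used Python 3.11.15, pandas 2.3.3 and matplotlib 3.10.9. Calls are Benjamini-Hochberg adjusted p under 0.05 within a comparison over 12591 genes. Folds are ratios of mean TPM. The fit was also run on simulated data with independent libraries and no effect of the replicate number. That run cannot show how the fit behaves where libraries with the same number deviate together. Groups came from the labelled treatment and replicate numbers from sample titles. Where every pair of libraries with the same number deviated together over genes (correlation over 0.1), the numbers were taken to pair the samples, as in 14 of 16 comparisons of 2 groups (0.032 to 0.542 over all of these). Unless the block is named, calls come from the fit without this pairing. A member that missed the threshold there may be called with the replicate number as a block, and such calls are given beside it. In several comparisons the fit without pairing had fewer than 1 in 20 tested genes at an unadjusted p under 0.05. Examples are 180 genes for RNO added to vilanterol and 170 for the RNO effect at 1 nM minus 0.1 nM ONO. It may thus miss changes, and a missed call does not show that a gene was unchanged. The cause was not tested. Named genes are the 4 members, the 5 genes most like each, and called genes of the lists, at most 6 a list. CD47, CMTM6, CD9, CD63, CD81 and CD151 fall outside this rule and were named after their values were seen. Members and lists were chosen with earlier results of these data known. Promoters came from RefSeq and matched 4 of 4 members. Alternatives were a pseudocount of 0.1, no filter, equal totals, median of ratios (chosen after seeing the data), the replicate block, library weights, fitting the compared groups alone, and leaving out each library.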

Additional observations from a re-analysis of the deposited data

How the results depend on the processing

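Of the 112 results of the 4 genes, no direction turned in any called result. A tested result stayed as given if it kept its side of the threshold, and one against vehicle if it moved within the replicate SD. Direction was not checked in tested results that were not called. All 112 stayed as given with libraries rescaled to equal totals or to the median of ratios. The count was 111 without the filter, 105 with the compared groups alone, 104 with library weights and 97 with a pseudocount of 0.1. Leaving out 1 library, the 33 called results kept their call in 246 of 264 refits, the 43 that were not called gained one in 9 of 440, and the 36 against vehicle, which carry no test, moved by less than the replicate SD in all 288. The cause of each change was not tested, beyond fewer samples entering a fit.

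With a pseudocount of 0.1, log2 differences from vehicle moved by more than the replicate SD in low genes. For CD200 they became 0.55 with RNO, 1.33 with 1 nM ONO, 2.49 with 1 µM ONO, 3.05 with vilanterol, and, with RNO added, 1.42, 1.96, 2.94 and 3.11 for the 3 doses and vilanterol. For CD274 they became 0.96 with 1 µM ONO, 1.64 with vilanterol and, with RNO added, 0.89, 1.56 and 1.4 for 1 nM, 1 µM and vilanterol. The RNO effect lost its call in CD200 at 1 nM ONO (0.63) and in CD274 at 1 µM ONO (0.61).

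The replicate number as a block (pairing) ended no call and added 16, with unchanged log2 differences. These were CD200 for RNO on 1 µM ONO (0.41), 1 nM against 0.1 nM under RNO (0.46) and 1 nM ONO with RNO against 1 µM ONO (-0.48, adjusted p = 0.0025); CD24 for RNO on 1 nM (0.61) and 1 µM ONO (0.38), 0.1 nM ONO with RNO against RNO (0.65), 1 nM against 0.1 nM without (0.72) and under RNO (0.60), 1 µM ONO against vilanterol (-0.48), 1 nM ONO with RNO against 1 µM ONO (-0.64, 9.07e-10) and the RNO effect at 1 µM ONO minus vilanterol (0.40); TM4SF1 for 1 nM against 0.1 nM under RNO (0.48), 1 nM ONO with RNO against 1 µM ONO (-0.41, 0.00549) and the RNO effect difference (0.47); and CD274 for 1 µM against 1 nM (0.43) and the RNO effect difference (0.73). The numbers did not pair the samples by the stated criterion for 1 nM ONO with RNO against 1 µM ONO, nor for vilanterol with RNO against RNO. Members called were 49 of 76 with the block and 33 without. Over the 12 comparisons without vehicle in which at least 20 genes were called, the number of genes called was 1.66 to 6.54 times as large with the block, 1.18 to 2.67 times with library weights, 0.0357 to 0.792 times on the compared groups alone, 0.5 to 1.3 times with equal totals and 0.286 to 1.6 times on leaving out 1 library. The last moved it by over 1.5 times in 25 of 96 refits, in 7 comparisons, among them all 8 libraries for RNO on 1 nM ONO (11 to 48 genes, 30 with all libraries). Equal totals left 14 genes, against 28, for 1 nM ONO with RNO against 1 µM ONO and 23, against 40, for 1 nM against 0.1 nM ONO. The RNO effect at 1 µM ONO minus vilanterol had 3 genes called, 153 with the block, 10 with library weights, 9 on the compared groups alone, 0 with a pseudocount of 0.1, without the filter or with equal totals, and 0 to 14 on leaving out 1 library.

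Library weights added calls in CD200 for RNO on 1 µM ONO (0.41), CD24 for RNO on 1 nM ONO (0.63), 0.1 nM ONO with RNO against RNO (0.65) and 1 nM against 0.1 nM (0.72), TM4SF1 for 1 nM against 0.1 nM under RNO (0.50), and CD274 for RNO on 1 nM ONO (0.41), 1 µM against 1 nM (0.41) and the RNO effect difference (0.72). On the compared groups alone, calls were lost in CD200 for RNO on 1 nM ONO (0.54, also lost without the filter) and 0.1 nM ONO with RNO against RNO (0.69), CD24 for RNO on 0.1 nM ONO (0.73) and CD274 for 1 nM ONO with RNO against RNO (0.64), and gained in CD200 for RNO on 1 µM ONO (0.41) and in CD274 (0.73) and TM4SF1 (0.47) for the RNO effect difference.

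Leaving out 1 library, the RNO effect that lost its call lay between 0.46 and 0.66 in CD200 at 1 nM ONO, 0.64 and 0.85 in CD24 at 0.1 nM and 0.48 and 0.57 in CD274 at 1 µM. Results that gained a call lay between -0.55 and -0.35 in CD200 for 1 nM ONO with RNO against 1 µM ONO, 0.33 and 0.59 in CD200 and 0.42 and 0.60 in TM4SF1 for 1 nM against 0.1 nM under RNO, 0.58 and 0.84 in CD24 for 1 nM against 0.1 nM, 0.51 and 0.78 in CD24 and 0.24 and 0.48 in CD274 for 0.1 nM ONO with RNO against RNO, and 0.38 and 0.51 in CD274 for 1 µM against 1 nM. Without counts, the depth behind the low levels of CD200 and CD274 is unknown.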
